A study of Mus musculus with 4 samples.

Results

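The transcription factor AP-1 and a small set of other genes that cells switch on first after a stimulus were followed in 4 mouse oral cancer cell lines. The set holds 10 genes, of 34685 different gene identifiers in the expression table. They are the FOS family genes Fos, Fosb, Fosl1 and Fosl2, the JUN family genes Jun, Junb and Jund, and the stress- and growth factor-induced genes Atf3, Egr1 and Ier3. The genes were taken as a list of names, chosen with earlier results of these data known, and found by matching Ensembl identifiers to symbols in GENCODE M21. All 10 reached 1 FPKM in at least 1 line, as did 14155 genes in all. FPKM counts sequenced fragments relative to transcript size and library depth, so that levels of different genes are compared per length.

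The lines came from squamous tumors that the carcinogen DMBA had raised in the mouths of C57BL/6 mice. AOC3 was grown from the primary oral tumor of mouse 3 and AOC3-LN from a lymph node metastasis of the same mouse, and AOC11 and AOC11-LN are the matching pair from mouse 11. The cells had been passed once under the skin of other mice and cleared of fibroblasts with magnetic beads before they were cultured. No line was treated before sequencing as far as the sources used here state, and each was sequenced as 1 library, so each value is that of a single library, 2 lines stand for each mouse, and a difference between mice cannot be told apart from a difference between individual tumors.

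AP-1 is not 1 protein but a pair. A FOS family protein joins a JUN family protein, or JUN proteins pair with each other, through a leucine zipper, and the pair binds a short DNA element in the promoters and enhancers of growth, invasion and differentiation genes. In squamous epithelium AP-1 is known for its part in wound responses, keratinocyte differentiation and skin carcinogenesis. Many of its genes are immediate early genes, which are transcribed without new protein synthesis after serum, growth factors, stress or ERK signaling and give short-lived transcripts. FOS and FOSB carry strong activation domains that FOSL1 (FRA-1) and FOSL2 (FRA-2) lack, and FOSL1 is long known as an ERK-stabilized member that accumulates in invasive carcinoma cells.

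The promoters show what sort of sequence the inducible members carry next to their start sites. RefSeq windows from 250 bases before to 50 after the start (GRCm38.p6) were searched for 8 of the 10 genes. No window of Fosl1 or Egr1 was searched, so the motif counts leave both genes out. The half-site TGACG of the cAMP response element, which proteins of the ATF and CREB group bind, was in the windows of 4 of the 8 genes (Fos, Fosb, Junb and Atf3), against 20.8% of 32851 promoter windows of the same length, searched on both strands. The AP-1-like octamer TGACNTCA, which also takes in the full cAMP response element and so overlaps TGACG in part, was in 1 of 8 windows (Jun), against 8.8% of all windows. The heptamer TGACTCA, the classical AP-1 site, was in none of the 8 windows and in 5.2% of all windows, and the serum response element core known as the CArG box was likewise in none of the 8 and in 1.6% of all. These matches describe letters only. Sequence outside the windows was not searched, so an absence does not cover elements farther from the start, or any element of Fosl1 and Egr1. The 100 bases before the start are printed 5′ to 3′ for the 4 genes with a match there (that of Junb lies farther out), with the TGACG or TGACNTCA match, on either strand, in capitals. They lie at chr12:85473790-85473889 on the plus strand (Fos), chr7:19310046-19310145 on the minus strand (Fosb), chr4:95052223-95052322 on the minus strand (Jun) and chr1:191183334-191183433 on the minus strand (Atf3).
Fos: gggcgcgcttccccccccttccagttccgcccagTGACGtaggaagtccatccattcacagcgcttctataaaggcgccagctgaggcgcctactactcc
Fosb: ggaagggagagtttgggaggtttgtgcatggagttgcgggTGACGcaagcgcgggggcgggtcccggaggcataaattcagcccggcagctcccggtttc
Jun: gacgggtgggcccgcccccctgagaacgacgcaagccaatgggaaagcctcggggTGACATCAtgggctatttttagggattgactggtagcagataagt
Atf3: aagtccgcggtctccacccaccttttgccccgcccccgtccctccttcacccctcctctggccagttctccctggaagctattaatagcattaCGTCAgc
In these windows the Fos match spans the bases from -66 to -62 and the Fosb match those from -60 to -56, counted from the start site. The Jun match, tgacatca, spans -45 to -38, and the Atf3 match lies on the opposite strand at -7 to -3. The Atf3 window belongs to a start 34706 bases inside the longest GENCODE gene model, so other Atf3 transcripts start elsewhere. Of the windows without a match, that of Jund belongs to a start 1210 bases before the GENCODE gene start. That of Fosl2 belongs to a start 671 bases inside the gene model.

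The lines are epithelial by their markers. All 8 epithelial markers reached 1 FPKM in at least 1 line, with summed levels between 2780 and 3523 FPKM. The sums hide differences in single markers. Krt5 was at 499 and 275 FPKM in AOC3 and AOC3-LN and at 4.99 and 17.0 FPKM in AOC11 and AOC11-LN. Trp63 was at 1.69 and 2.10 FPKM in AOC3 and AOC3-LN. It was under 1 FPKM in AOC11 (0.0848) and AOC11-LN (0.841). Krt14 was higher in both AOC11 lines than in both AOC3 lines. Fibroblast markers summed to between 0.31 and 4.71 FPKM, with 8 of 9 under 1 FPKM in all lines, endothelial markers to between 0.25 and 0.39 FPKM, and T cell markers to at most 0.04 FPKM, with Cd3e, Cd4 and Cd8a listed at 0 in all lines. Macrophage markers summed to between 9.29 and 27.0 FPKM, with Csf1r and Cd68 as the 2 of 6 that reached 1 FPKM in any line. Adgre1 was listed at 0 in all lines. Csf1r was at 0.995 and 0.435 FPKM in AOC3 and AOC3-LN and at 20.8 and 6.01 FPKM in AOC11 and AOC11-LN. Cd68 went the other way, at 13.0, 8.79, 6.15 and 4.45 FPKM in the same order of lines. The table gives no read counts, and the spacing of low values put the depth at 28300000 fragments for AOC3-LN and between 32400000 and 33800000 for the other lines. At that depth a member rested on an estimated 228 fragments (Fosb in AOC11-LN) to 8967 fragments (Ier3 in AOC3-LN). In such bulk RNA, fewer cells that express a gene and less of its RNA per cell cannot be told apart.

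The 10 genes spanned a wide range of levels. Ier3, an early-response gene that modulates survival signaling, stood highest in every line but AOC11-LN, where Junb was above it. Fosb, Egr1 and Fos were the lowest. The level of a gene is given first in FPKM for each line. Differences are on a log2(FPKM + 1) scale after quantile normalization, with the mean of the AOC3 lines minus the mean of the AOC11 lines for the contrast of mice and the lymph node line minus its primary line within a mouse. A log2 difference above 1 or below -1 is counted as past the fold. The contrast of mice was also fitted with limma, in which the 2 lines of a mouse take the place of replicates. Its p-values set the difference between mice against the spread between the 2 lines of a mouse, estimated with information shared across genes. They do not measure a spread between mice.

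**Figure D1:**
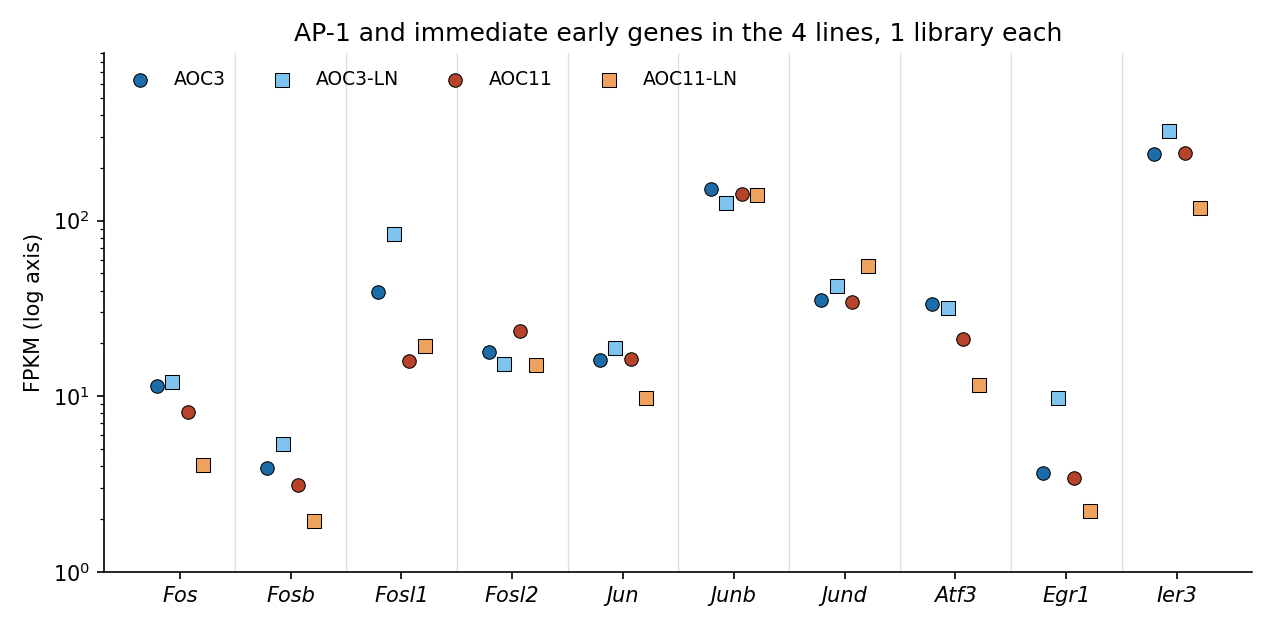
FPKM (log axis) of the 10 genes in the 4 lines, 1 point for each library, with circles for primary lines and squares for lymph node lines. Fosl1 ranged from 16.0 FPKM in AOC11 to 84.1 FPKM in AOC3-LN, whereas the 4 Junb points lie between 126 and 151 FPKM.

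Fosl1 separated the lines most. It was at 39.0 and 84.1 FPKM in AOC3 and AOC3-LN and at 16.0 and 19.3 FPKM in AOC11 and AOC11-LN. Both AOC3 lines lay above both AOC11 lines, and the highest line was 5.27 times the lowest, the widest range among the 10 genes. Relative to other genes its level moved from the 59.3rd percentile of tested genes in AOC11 to the 91.0th in AOC3-LN. The AOC3 lines exceeded the AOC11 lines by 1.70 ± 0.39 (SE) on the log2 scale, with an unadjusted limma p of 0.00743 and a Benjamini-Hochberg adjusted p of 0.143 over all genes tested. AOC3-LN exceeded AOC3 by 1.09, and AOC11-LN exceeded AOC11 by 0.28. Fosl1 lies at chr19:5447547-5455946 (mm10, plus strand), and 1163 of the 2033 bases of its annotated exons also belong to Ccdc85b on the opposite strand. Ccdc85b was at 18.5 and 35.8 FPKM in AOC3 and AOC3-LN and at 10.96 and 14.7 FPKM in AOC11 and AOC11-LN, the same order of lines. The library kit keeps strand, but the strand setting of the counting is not given in the sources used here, and how far reads of either gene entered the other's value was not tested.

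Among the genes whose pattern over the 4 lines was nearest to that of Fosl1, by Euclidean distance of centred log2(FPKM + 1) values, were S100z (distance 0.27) and Arl5c (0.32). They were expressed far below Fosl1. Arl5c was at 4.50 and 9.90 FPKM in AOC3 and AOC3-LN and at 1.62 and 2.63 FPKM in AOC11 and AOC11-LN. With 4 libraries this likeness is a description only.

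The other FOS genes fell into separate patterns. Fos, the prototype immediate early AP-1 gene, was at 11.5 and 12.0 FPKM in AOC3 and AOC3-LN and at 8.16 and 4.06 FPKM in AOC11 and AOC11-LN. Fosb, its closest relative, was at 3.91, 5.35, 3.11 and 1.95 FPKM in the same order of lines. For both genes AOC3-LN was highest and AOC11-LN lowest, and both AOC3 lines were above both AOC11 lines. The contrast of mice was 1.01 ± 0.36 (SE) for Fos (limma unadjusted p = 0.0387, adjusted p = 0.246) and 0.77 ± 0.36 for Fosb (limma unadjusted p = 0.0815, adjusted p = 0.325). The Fos contrast was just past the fold, and below it without quantile normalization (0.91) or with median scaling (0.98). Fosl2, which shares its activator-poor structure with Fosl1, went another way. It was at 17.9 and 15.2 FPKM in AOC3 and AOC3-LN and at 23.7 and 15.0 FPKM in AOC11 and AOC11-LN, so the groups overlapped and the highest level was in AOC11. Its contrast of mice was -0.10 ± 0.27 (limma unadjusted p = 0.724, adjusted p = 0.861), and its sign turned without AOC11 (0.20).

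In sum over the 4 genes, FOS family transcripts reached 72.4 and 116.7 FPKM in AOC3 and AOC3-LN and 50.9 and 40.3 FPKM in AOC11 and AOC11-LN. The make-up of this pool differed between lines. Fosl1 gave 54.0% and 72.1% of it in AOC3 and AOC3-LN, but 31.4% and 47.8% in AOC11 and AOC11-LN. In AOC11 the leading member was Fosl2, with 46.5%, against 37.3% in AOC11-LN, 24.8% in AOC3 and 13.0% in AOC3-LN. Fos itself contributed between 10.1% and 16.0% in every line, and Fosb between 4.6% and 6.1%. Within both mice the lymph node line had a larger Fosl1 share than the primary line, and with 1 library per line these shares have no replicate check.

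**Figure D2:**
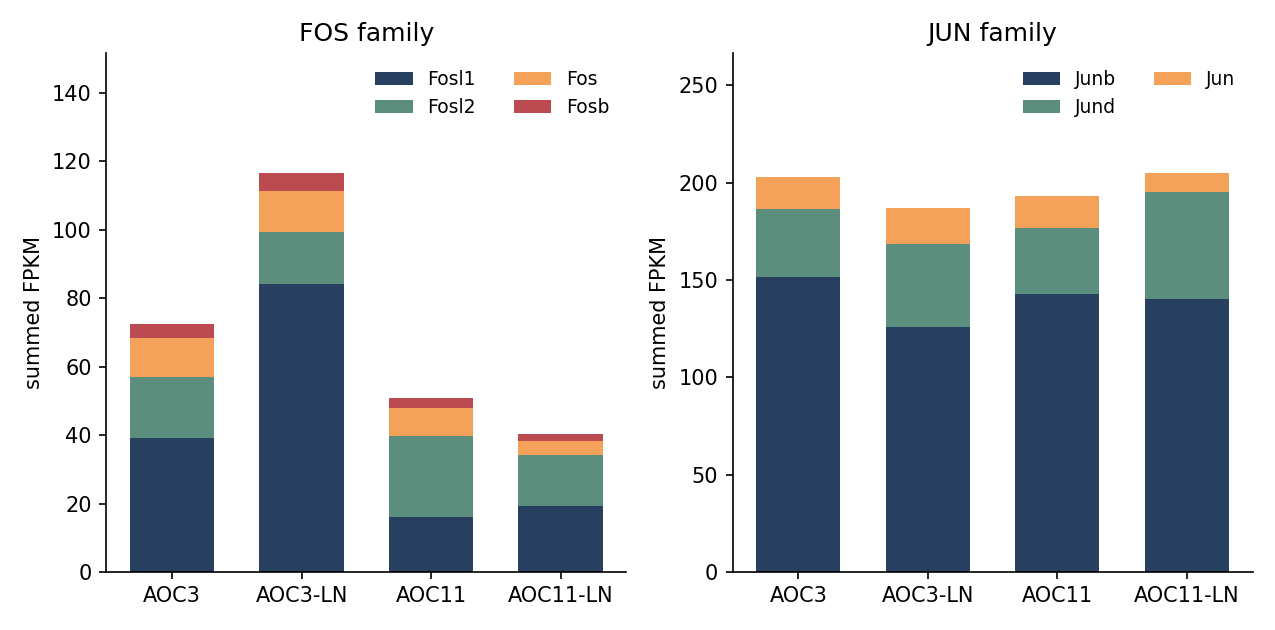
Summed FPKM of the FOS family (left) and the JUN family (right) in each line, stacked by gene on axes that start at 0. The FOS family bars run from 40.3 to 116.7 FPKM with Fosl1 as the part that varies most, and the JUN family bars stay between 187.1 and 205.0 FPKM.

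The JUN family, whose members supply the obligatory partners, varied much less in total. It summed to 202.8 and 187.1 FPKM in AOC3 and AOC3-LN and to 193.1 and 205.0 FPKM in AOC11 and AOC11-LN. Junb, often an inhibitor of JUN-driven transcription, made up between 67.2% and 74.6% of it. Junb was at 151 and 126 FPKM in AOC3 and AOC3-LN and at 143 and 140 FPKM in AOC11 and AOC11-LN, the narrowest range of the 10 genes with a ratio of 1.20 between the highest and the lowest line. Its contrast of mice was -0.01 ± 0.17 (limma unadjusted p = 0.95, adjusted p = 0.981), and its sign turned with median scaling (0.05), without AOC3-LN (0.12) and without AOC11 (0.02). A second Junb entry ends within Prdx2 on the opposite strand. It was at 2.35, 1.78, 0.386 and 1.21 FPKM and was left out of these values.

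Jun, the strongest activator of the family, was at 16.2 and 18.7 FPKM in AOC3 and AOC3-LN and at 16.2 and 9.79 FPKM in AOC11 and AOC11-LN. AOC3 and AOC11 were level, and AOC11-LN stood below the rest. The contrast of mice was 0.51 ± 0.29 (limma unadjusted p = 0.138, adjusted p = 0.405), with 0.18 left without AOC11-LN and 0.84 without AOC11. Jund, which is expressed more steadily than its relatives and restrains growth in many cell types, was at 35.3 and 42.7 FPKM in AOC3 and AOC3-LN and at 34.2 and 55.1 FPKM in AOC11 and AOC11-LN. It was the 1 gene of the 10 with its highest level in AOC11-LN, and its contrast of mice was -0.11 ± 0.28 (limma unadjusted p = 0.702, adjusted p = 0.848). That sign turned without AOC11-LN (0.22) and without AOC3 (0.03). The Jund share of the JUN pool was 26.9% in AOC11-LN and between 17.4% and 22.8% elsewhere, while the Jun share was 4.8% there and at least 8.0% elsewhere. The Jund value shares its locus with the antisense transcript Gm11175, which covers 877 of its 1668 exon bases and was listed at 143 and 176 FPKM in AOC3 and AOC3-LN and at 186 and 238 FPKM in AOC11 and AOC11-LN. Gm11175 was therefore listed several times above Jund, and the division of reads between them was not tested. The antisense transcript Junos, over 232 of the 3189 exon bases of Jun, was at no more than 3.59 FPKM.

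With a FOS pool that differed more between lines than the JUN pool, the ratio of JUN to FOS family transcripts ranged from 1.6 in AOC3-LN through 2.8 in AOC3 and 3.79 in AOC11 to 5.09 in AOC11-LN. The ratio of Fosl1 to Fos was 6.99 for AOC3-LN, 4.76 for AOC11-LN and 3.41 for AOC3, with AOC11 lowest, so it was higher in the lymph node line of each mouse. Both are ratios of transcript levels within a library.

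The 3 inducible genes outside the FOS and JUN families differed in their pattern. Atf3, a stress-induced bZIP factor that can pair with JUN proteins, was at 33.3 and 31.7 FPKM in AOC3 and AOC3-LN and at 21.1 and 11.5 FPKM in AOC11 and AOC11-LN. Both AOC3 lines were nearly level and above both AOC11 lines. Its contrast of mice was 1.08 ± 0.31 (limma unadjusted p = 0.0183, adjusted p = 0.19). Egr1, a zinc-finger factor that ERK signaling induces through the serum response factor, was at 3.63 and 9.81 FPKM in AOC3 and AOC3-LN and at 3.44 and 2.24 FPKM in AOC11 and AOC11-LN. AOC3-LN stood apart from the other 3 lines, and the groups of AOC3 and AOC11 lines were separated only by the small step between AOC3 and AOC11. The contrast of mice, 0.99 ± 0.52 (limma unadjusted p = 0.117, adjusted p = 0.378), was 0.32 without AOC3-LN, 1.66 without AOC3 and 0.67 without AOC11-LN. Ier3 was at 238 and 325 FPKM in AOC3 and AOC3-LN and at 242 and 119 FPKM in AOC11 and AOC11-LN. The 2 primary lines were level, and the groups overlapped. The contrast of mice was 0.72 ± 0.41 (limma unadjusted p = 0.138, adjusted p = 0.406), and it was 0.16 without AOC11-LN and 1.27 without AOC11.

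Between the mice, 3 of the 10 genes (Fos, Fosl1 and Atf3) were past the fold with higher levels in the AOC3 lines, against 5.11% of all genes tested, and none was past it with lower levels, against 6.0% of all genes. The median difference of the 10 genes was 0.74, and that of all genes was 0.01. In deposited FPKM, 5 of the 10 (Fos, Fosb, Fosl1, Atf3 and Egr1) had both AOC3 lines above both AOC11 lines, against 22.5% of all genes, and none had both below, against 30.5% of all genes. No member passed an adjusted limma p of 0.05, which 29 genes or 0.205% of all did. At an unadjusted limma p under 0.05 there were 3 members (Fos, Fosl1 and Atf3), against 18.7% of all genes. Leaving out 1 line changed the count of members past the fold, from 1 (Fosl1 alone, without AOC11-LN) and 2 (Fosl1 and Atf3, without AOC3-LN) to 5 (without AOC3) and 6 (without AOC11). The share of all genes past the fold without a line is not given here. Without AOC11-LN the contrast was 0.54 for Fos, 0.66 for Atf3 and 1.84 for Fosl1, and without AOC3-LN it was 0.93, 1.10 and 1.16. The Fosb contrast was 0.43 without AOC11-LN and 0.52 without AOC3-LN.

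Mice were also compared at each site. Between the primary lines AOC3 and AOC11, Fosl1 (1.29) was the only member past the fold, where 6.25% of all genes were higher and 5.69% lower in AOC3. Atf3 (0.69) and Fos (0.46) came next, and Jun (0.05), Egr1 (-0.00) and Ier3 (-0.06) were level between these lines. Between the lymph node lines AOC3-LN and AOC11-LN, 6 members were past the fold and higher in AOC3-LN, against 7.58% of all genes, with 8.69% lower. These were Fosl1 (2.11), Egr1 (1.98), Fos (1.56), Ier3 (1.49), Atf3 (1.47) and Fosb (1.37), with Jun at 0.97. Fosl2 (0.12), Junb (-0.11) and Jund (-0.31) did not pass the fold. Each of these differences compares 2 libraries, and the difference between the sites was not tested.

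Within mouse 3, the lymph node line had more Fosl1 and more Egr1 transcript than the primary line. Egr1 was at 3.63 FPKM in AOC3 and 9.81 in AOC3-LN, 2.70 times the primary level and 1.34 on the log2 scale, and Fosl1 at 39.0 and 84.1 FPKM, 2.15 times the primary level. These 2 of 10 members were past the fold and higher, against 2.11% of all genes, and none was past it and lower, against 3.42%. Fosb (0.50), Ier3 (0.45), Jund (0.28), Jun (0.26) and Fos (0.16) were above 0 without reaching the fold, and Atf3 (-0.05), Fosl2 (-0.16) and Junb (-0.27) were below 0. The sign for Atf3 turned with median scaling (0.01).

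Within mouse 11, Ier3 had less transcript in the lymph node line than in the primary line. It was at 119 FPKM in AOC11-LN against 242 in AOC11, a ratio of 0.49 and a log2 difference of -1.11, and was the 1 member past the fold and lower, against 3.14% of all genes. Under median scaling its value lay on the fold itself. No member was past the fold and higher, against 4.96% of all genes. Fos (-0.94), Atf3 (-0.83), Fosb (-0.69), Jun (-0.66), Egr1 (-0.64) and Fosl2 (-0.61) were also below 0, as was Junb (-0.07), while Fosl1 (0.28) and Jund (0.67) were above 0. The 2 genes above 0 of 10 stand beside 6747 above 0 of 14155 genes, and the median of the 10 was -0.65, against -0.02 for all genes. In this pair the share of higher calls among all genes past the fold was 61.2%, and 71.1% without quantile normalization and 72.0% with median scaling.

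**Figure D3:**
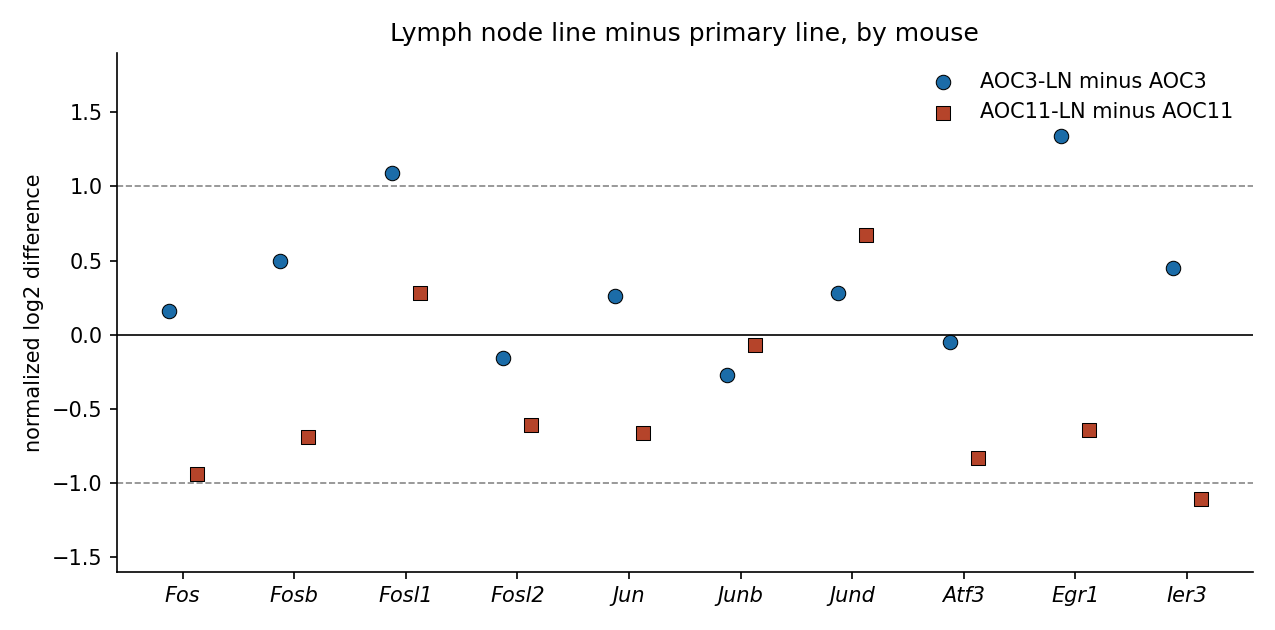
Normalized log2 difference of the lymph node line from the primary line for each gene, with circles for mouse 3 and squares for mouse 11, and dashed lines at 1 and -1. Egr1 was at 1.34 in mouse 3 and -0.64 in mouse 11, and Ier3 at 0.45 and -1.11, while Fosl1 was above 0 in both.

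The pairs of the 2 mice share no library. Of the 10 genes, 5 had opposite signs: Fos, Fosb, Jun, Egr1 and Ier3 were above 0 in mouse 3 and below 0 in mouse 11, a combination found in 29.4% of all genes. No member had the reverse combination, which 23.3% of all genes had. Opposite signs of either kind were thus common among all genes. Fosl1 and Jund were above 0 in both mice, against 24.3% of all genes, and Fosl2, Junb and Atf3 below 0 in both, against 22.8%. No member was past the fold in opposite directions. Seen by line, AOC3-LN held the highest level of 6 of the 10 genes (21.7% of all genes) and AOC11-LN the lowest level of 7 (22.9% of all genes).

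Of the other AP-1 and bZIP genes, 20 of 24 were expressed. Between the mice 3 were past the fold and higher in the AOC3 lines and none was lower, against 5.11% and 6.0% of all genes, with a median of -0.00. They included Atf6, an endoplasmic reticulum stress factor (15.8 and 11.3 FPKM in AOC3 and AOC3-LN and 6.41 and 5.22 FPKM in AOC11 and AOC11-LN), and Ddit3. The Ddit3 values cannot carry a comparison, since this widely expressed stress gene was at 35.6 FPKM in AOC3 and 3.61 in AOC11-LN but listed at or next to 0 in the other lines, and its locus overlaps other annotated genes on the opposite strand. Ddit3 was also the only gene of the list past the fold within either mouse.

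Of 31 other immediate early genes 26 were expressed, and 9 were past the fold and higher in the AOC3 lines, with none lower, against 5.11% and 6.0% of all genes, and a median of 0.65. In 17 of the 26 both AOC3 lines lay above both AOC11 lines, and in 2 both lay below, against 22.5% and 30.5% of all genes. The largest difference was in Klf2, a Krüppel-like factor, at 5.60 and 14.6 FPKM in AOC3 and AOC3-LN and at 0.515 and 0.419 FPKM in AOC11 and AOC11-LN (2.81). Gdf15, a stress-induced secreted factor, was at 2.90, 4.73, 0.0494 and 0.0252 FPKM (2.22), and Zfp36l2, an mRNA-decay factor, at 71.1, 82.8, 30.4 and 32.4 FPKM (1.32). In mouse 3, Klf2 (1.34) and Klf4 (1.12) were past the fold and higher in the lymph node line, against 2.11% of all genes, and Plk3 was at 0.90. In mouse 11, none was higher and 5 were lower in the lymph node line, against 4.96% and 3.14% of all genes. Among these, Ccn1, a matricellular growth factor-induced gene, was at 910 FPKM in AOC11 and 184 in AOC11-LN (-2.29), followed by Klf6 (-1.33) and Plk2 (-1.28). AOC11-LN was the lowest line for 13 of the 26 genes, against 22.9% of all genes.

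All 25 listed kinases and serum response factors that act upstream were expressed, none was past the fold within a mouse, and between the mice 1 was. This was Mapk11, a p38 kinase, at 5.13 and 3.52 FPKM in AOC3 and AOC3-LN and at 8.91 and 12.9 FPKM in AOC11 and AOC11-LN (-1.07). The ERK gene Mapk3 was at 47.5, 43.6, 72.4 and 101 FPKM in the same order of lines (-0.83). Srf, whose protein binds the serum response element, was at 29.9 FPKM in AOC3-LN against 23.4 in AOC3 (0.36), and the p38 gene Mapk14 (-0.71), the JNK gene Mapk8 (-0.75) and the RSK gene Rps6ka3 (-0.83) had the largest differences in mouse 11. These are transcript levels and not kinase activities.

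Of 34 genes described as AP-1 targets, 30 were expressed, and 11 were past the fold and higher in the AOC3 lines and 1 lower, against 5.11% and 6.0% of all genes, with a median of 0.38. Sprr1a, a cornified envelope gene, was at 55.6 and 25.4 FPKM in AOC3 and AOC3-LN and at 5.33 and 2.43 FPKM in AOC11 and AOC11-LN (3.18). Serpinb2, a plasminogen activator inhibitor, was at 19.7, 162, 8.47 and 4.65 FPKM (3.06), and Timp1, a metalloproteinase inhibitor, at 96.8, 178, 18.7 and 19.9 FPKM (2.75). Targets differed in direction between AOC3-LN and AOC3: Serpinb2 was 2.97 higher than in AOC3 on the log2 scale while the protease gene Mmp9 was 2.81 lower, from 46.8 FPKM to 5.60. Of the 30 genes, 3 were past the fold and higher in AOC3-LN than in AOC3, and 6 were lower, against 2.11% and 3.42% of all genes. In AOC11-LN none was higher than in AOC11 and 6 were lower, against 4.96% and 3.14% of all genes, with a median of -0.45. They included Ptgs2 (52.0 FPKM in AOC11 and 4.95 in AOC11-LN, -3.22), the cytokine gene Il1a (69.1 and 11.3 FPKM, -2.53) and the chemokine gene Cxcl1 (357 and 77.8 FPKM, -2.20). Ptgs2, the inducible prostaglandin synthase, moved the other way in mouse 3, from 4.91 FPKM in AOC3 to 53.2 in AOC3-LN (3.23), so its level in AOC3-LN was close to that in AOC11.

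**Figure D4:**
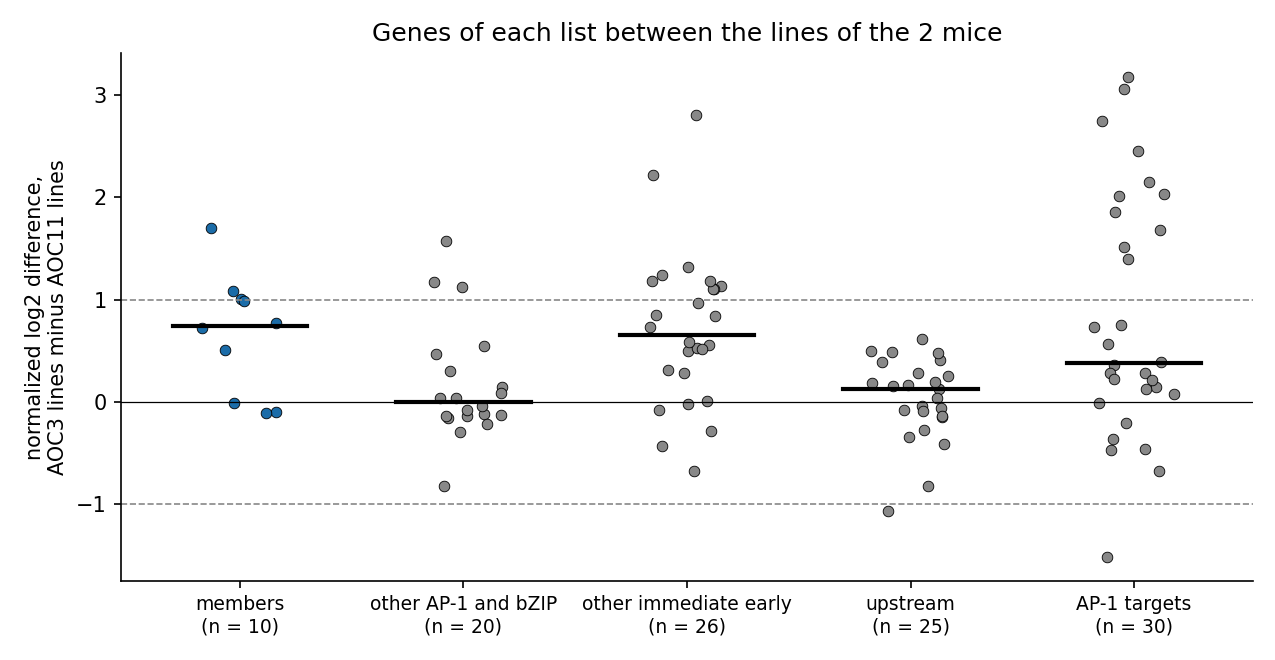
Normalized log2 difference of the AOC3 lines from the AOC11 lines for each expressed gene of 5 lists, with the list median as a black bar and dashed lines at 1 and -1. The medians were 0.74 for the 10 genes, -0.00 for other AP-1 and bZIP genes, 0.65 for other immediate early genes, 0.12 for upstream factors and 0.38 for AP-1 targets.

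All 4 lines of the contrast of mice also enter the comparisons within mice and at each site, so these counts are not separate pieces of evidence.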

How the data were processed

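RNA from 4 cultured lines was sequenced as 1 library each with a stranded mRNA kit on paired-end reads. Per the methods, the authors trimmed reads with Trim Galore, mapped them to mm10 with TopHat2 and estimated transcript abundance with Cufflinks on GENCODE M21. The deposited values are FPKM, before the log2 and quantile steps of the methods. Depth was estimated from the spacing of low values: between 71.1% and 73.8% of them fell within 0.1 of a whole fragment number, against 20% by chance, so no count test was run.

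FPKM plus a pseudocount of 1 was log2-transformed and quantile-normalized over 34721 entries, and a gene was kept if any line reached 1 FPKM. Where a gene had more than 1 entry, that with the highest summed FPKM was used. limma 3.58.1 in R 4.3.3 (trend) with Benjamini-Hochberg adjustment was fitted for the contrast of mice only and leaves 2 residual degrees of freedom. The code was tested on simulated data. The 10 genes and all lists were chosen with earlier results of these data known. Named genes are the 10, the 3 genes of each other list with the largest difference in each comparison, and the 3 nearest to the most variable member. Some genes that this rule names are not reported here. Alternatives were another pseudocount, scaling, filter or fold, protein-coding genes only, and leaving out each line.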

Additional observations from a re-analysis of the deposited data

How the results depend on the processing

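The count of members past the fold between the mice was 3, and it was 6 at a 1.5-fold threshold. Leaving out 1 line gave between 1 (without AOC11-LN) and 6 (without AOC11). Within mouse 11 the count was 1, and it was 2 with a pseudocount of 0.1, which added Fos, and 8 at a 1.5-fold threshold. With that pseudocount, 1197 of 14155 genes were past the fold and higher in AOC11-LN, and 874 were lower. At the main setting these were 702 and 445. Between the primary lines the count was 1, and it was 2 at a 1.5-fold threshold; this comparison and that of the lymph node lines were added after seeing the data. The cause of these changes in member counts was not tested beyond the lower threshold itself. A lower threshold also passes more of all genes. The share of all genes at the 1.5-fold threshold, or without a line, is not given here, so those counts have no background. Of the recomputed member differences 168 moved by less than their counting interval at the estimated depth and 52 moved further. No difference past the fold changed sign, but this check does not register calls that were only lost or gained. Without AOC11-LN the contrast of mice fell below the fold for Fos (0.54) and Atf3 (0.66). With a pseudocount of 0.1 it rose past the fold for Egr1 (1.20). The filter and protein-coding settings come after normalization and cannot change a member's difference. Their values are therefore among the 168 by construction and say nothing about stability. No member passed the adjusted limma threshold under any of 8 settings, with a lowest adjusted p between 0.0748 (protein-coding genes only) and 0.388 (no filter). Over all genes limma called 29, against 0 without a filter (4244 at an unadjusted p under 0.05), 50 at a minimum of 5 FPKM and 256 among protein-coding genes. With site as a covariate, which pairs the lines of the mice by site, limma gave a lowest member adjusted p of 0.125. Among the 10 genes, depth bears most on Fosb, Egr1 and Fos. Their lowest values, in AOC11-LN, rest on an estimated 228, 313 and 256 fragments. Having 1 library per line leaves no measure of culture-to-culture spread.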
